A study of Caenorhabditis elegans with 2 samples.

Results

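Binding of HLH-4 at the nuclear hormone receptor genes of Caenorhabditis elegans was read from chromatin immunoprecipitation and sequencing (ChIP-seq) of whole hermaphrodite larvae at the first larval stage (L1). The genes described are the protein-coding genes of the Ensembl WBcel235 annotation whose symbol is nhr- and a number, and the set counts 268 of 19985 protein-coding genes. The larvae, of strain OP523, carried the unc-119(tm4063) allele and the transgene wgIs523, a stable insertion from which HLH-4 is made with GFP and FLAG joined to its C terminus. They had been synchronized as starved L1 larvae after bleaching and were collected 6 hours later. An anti-GFP antibody served for the precipitation, and the 2 biological replicates make up a single group. Every cell type of the larva contributed chromatin and all animals came from 1 transgenic line, so the cells in which a site was bound cannot be told apart. With 1 group there is no comparison between conditions, and the shares below are given beside the same share over all protein-coding genes, without a test.

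HLH-4 belongs to the Achaete-Scute transcription factors, which carry a basic helix-loop-helix domain, and is known for its role in the ADL chemosensory neurons. Factors of this family bind E-boxes as dimers with an E-protein. Nuclear hormone receptors are transcription factors with a zinc-finger DNA-binding domain and a ligand-binding domain that takes up small lipophilic molecules such as steroids and fatty acids. The family is greatly expanded in nematodes, mostly from an ancestor related to the vertebrate receptor HNF4, and only a small minority of the genes has a clear counterpart in insects or vertebrates. Known members act in moulting, dauer formation, fat metabolism, detoxification and neuronal identity.

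RefSeq product names placed 267 of the 268 genes among nuclear receptors. The exception was nhr-246, whose RefSeq product is a protein with a CHK kinase-like domain; it is kept in the counts because the symbol defines the group. Chromosome V held 166 of the 268 genes, IV held 33, X and I held 23 each, II held 15 and III held 8. A start within 10000 bp of the start of another nhr gene was found for 150 genes, in 43 runs of which the longest held 12. Related neighbours are therefore not independent observations, and the 95% exact Clopper-Pearson intervals given for shares cover counting error only.

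The lists of replicate 1, of replicate 2 and of the pooled replicates each held 30000 regions, with peaks and background together, ranked here by the authors' signal value. The optimal peaks are the 545 pooled regions with the highest signal values, so a peak among them can rank low in 1 replicate. The signal value of the weakest optimal peak was 43.1, and the next pooled region had almost the same value. Read depth is unknown. A region was given to a gene when its summit was at most 2000 bp upstream or 500 bp downstream of the gene start, and to the nearest start where several were in reach. Positions are on ce11. Signal values of different lists have no stated common scale, so the replicates are compared by rank.

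Optimal peaks lay at 6 of the 268 nhr genes (2.24%, interval 0.826% to 4.81%), where 1.56% of all protein-coding genes had one. When a peak was given to every gene in reach instead of the nearest, the shares were 2.24% for nhr genes and 2.23% for all genes. The interval holds the share over all genes in both settings, so the count does not set the nhr genes apart. The 6 genes were nhr-50, nhr-17, nhr-157, nhr-6, nhr-254 and nhr-189, and nhr-17 had 2 optimal peaks, which makes 7 peaks in all. A G/C-centred E-box (the hexamer CAGCTG or the hexamer CACCTG, whose reverse complement is CAGGTG, searched on both strands within 50 bp of the summit) was present at the strongest peak of 5 of the 6 genes (83.3%, interval 35.9% to 99.6%). Over all protein-coding genes at optimal peaks that share was 46.5%. The summit sequences are shown first because the E-box is the feature that most of them share. Each is read 5′ to 3′ on the strand of the gene from the ce11 reference, with the E-box in capitals. The full 101 bp around the summit is given except where that window overlaps a UTR, and there only the box and its flanks are shown.
nhr-50, box and flanks: tttgaatttttgCAGGTGgaaatacacggg
nhr-17: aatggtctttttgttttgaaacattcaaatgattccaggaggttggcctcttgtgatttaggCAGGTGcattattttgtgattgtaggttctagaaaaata
nhr-6: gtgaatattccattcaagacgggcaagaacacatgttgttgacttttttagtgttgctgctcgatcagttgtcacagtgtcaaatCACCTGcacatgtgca
nhr-254: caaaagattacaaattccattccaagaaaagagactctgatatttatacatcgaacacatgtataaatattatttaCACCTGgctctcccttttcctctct
nhr-189: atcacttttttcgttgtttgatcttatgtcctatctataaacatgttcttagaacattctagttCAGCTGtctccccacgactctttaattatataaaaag
nhr-157, no such E-box: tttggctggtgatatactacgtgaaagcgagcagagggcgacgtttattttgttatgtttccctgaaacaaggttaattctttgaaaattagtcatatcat
nhr-17, the farther peak, no such E-box: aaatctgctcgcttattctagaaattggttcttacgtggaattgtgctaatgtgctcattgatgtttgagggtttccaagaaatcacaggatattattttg
The boxes at nhr-50, nhr-17, nhr-6 and nhr-254 were of the CACCTG class and the box at nhr-189 was CAGCTG. The windows at nhr-157 and at the farther nhr-17 peak held no hexamer of the general form CANNTG at all. Such a hexamer was present at the strongest region of 60 of 158 nhr genes with a region (38.0%), where the share over all protein-coding genes was 34.8%.

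The strongest region of the group was at nhr-50 (V 15997726 to 16000631, minus strand) in the annotation. The peak spanned chrV:16000372-16000701 with a signal value of 94.8 and ranked 107 of the pooled list. It ranked 144 in replicate 1, with a signal value of 38.5, and 93 in replicate 2, with 58.2. Its summit was 94 bp downstream of where the gene starts, within the 5′ UTR, and the E-box 68 bp downstream. The replicates thus placed it close together, and no other protein-coding gene start was in reach.

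The gene nhr-17 (X 12663837 to 12667854, minus strand) was the only one of the 6 with more than 1 optimal peak. The nearer peak, at chrX:12668075-12668404, had its summit 386 bp upstream, in an exon of a non-coding RNA gene, with a signal value of 92.2 and rank 117. The farther, at chrX:12668975-12669304, had its summit 1286 bp upstream in intergenic sequence, with a signal value of 88.8 and rank 130. The nearer one ranked 232 in replicate 1, with a signal value of 31.1, and 89 in replicate 2, with 59.6. The farther one ranked 181 in replicate 1, with 35.0, and 115 in replicate 2, with 54.8. The order of the pair therefore differed between replicates, and only the nearer peak held the E-box. Another pooled region of nhr-17, 77 bp downstream of the start in a coding exon, ranked 8154 and also held CACCTG.

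At nhr-157 (V 3866556 to 3869005, minus strand) the summit lay 1581 bp upstream in intergenic sequence, farther than at the other 5 genes. The signal value was 77.7 and the rank 183, with rank 245 in replicate 1 (signal value 30.5) and 160 in replicate 2 (signal value 47.6). No other protein-coding gene start was in reach of the peak.

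The conserved receptor nhr-6 (III 3573581 to 3578771, plus strand), the orthologue of the mammalian NR4A receptors and known for its role in the spermatheca, carried a peak at chrIII:3573232-3573561. Its summit was 184 bp upstream of the start in intergenic sequence, the signal value 58.4 and the rank 324. It ranked 178 in replicate 1, with a signal value of 35.4, and 1016 in replicate 2, with 21.3. The nhr-6 peak was thus among the 545 strongest regions of replicate 1 only.

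The peak at nhr-254 (V 392628 to 395120, plus strand), at chrV:392194-392523, went the other way. Its summit lay 269 bp upstream, with a signal value of 56.4 and rank 347, and it ranked 3114 in replicate 1, with a signal value of 13.8, and 203 in replicate 2, with 43.4. The weakest of the optimal set, at nhr-189 (V 3858435 to 3860243, minus strand), had a signal value of 48.6 and rank 439. It ranked 460 in replicate 1, with 22.8, and 427 in replicate 2, with 30.1. Its pooled summit was 96 bp upstream of the start, against 156 bp in replicate 1 and 82 bp in replicate 2, and the E-box lay within 50 bp of the pooled and replicate 2 summits but not of that of replicate 1.

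Of the 6 genes, 4 (nhr-189, nhr-157, nhr-50 and nhr-17) had their strongest peak overlap one of the 545 strongest regions of each replicate. The same share over all protein-coding genes at optimal peaks is not given here, so the count does not set the nhr genes apart. Counted in each replicate list alone, 5 nhr genes were at the 545 strongest regions of replicate 1, where 1.57% of all protein-coding genes were. In replicate 2 the count was 6, where 1.5% of all protein-coding genes were. The replicate 1 genes were nhr-50, nhr-6, nhr-17, nhr-157 and nhr-189. Those of replicate 2 were nhr-17, nhr-50, nhr-157, nhr-254, nhr-189 and nhr-188, and nhr-188 was the only one without an optimal peak.

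**Figure D1:**
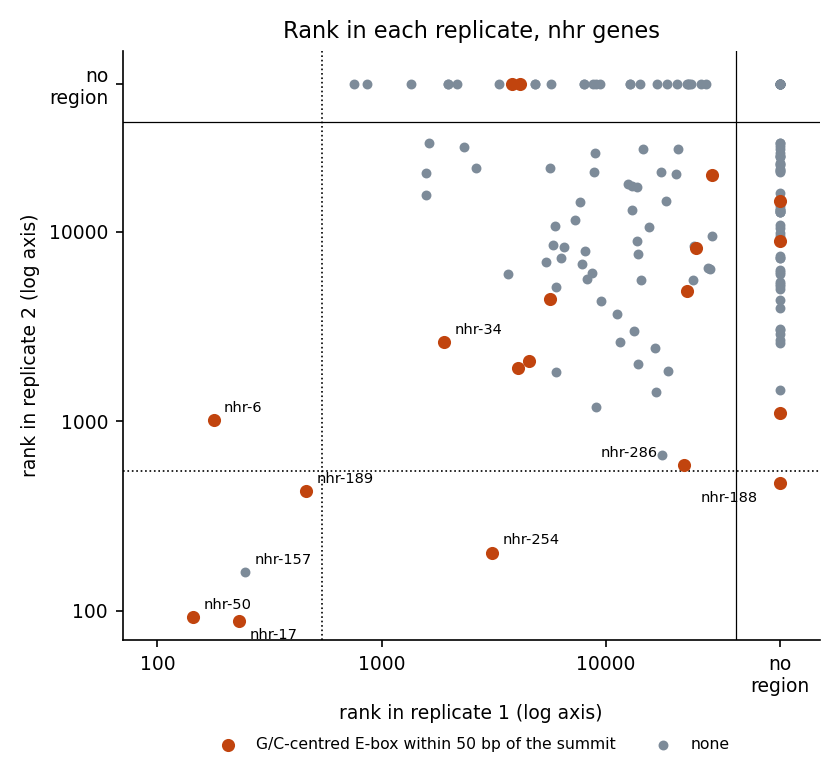
Each point is an nhr gene, placed by the rank of the region overlapping its strongest pooled region in replicate 1 (horizontal, log axis) and replicate 2 (vertical, log axis); points past the solid lines overlap no region of that replicate, and dotted lines mark rank 545. The 4 genes nhr-189, nhr-157, nhr-50 and nhr-17 lie in the lower left, while nhr-6 and nhr-254 are beyond rank 545 in 1 replicate.

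Beyond these, 152 nhr genes had a strongest region below the optimal set and 110 had no pooled region in reach. The 158 genes with a region made up 59% of the group (interval 52.8% to 64.9%), where 47.7% of all protein-coding genes had one. When a region was given to every gene in reach, 174 nhr genes had one, and the share over all genes is not given for that setting. How far the contrast rests on the assignment was not tested. On chromosome V alone, by the nearest start, 102 of 166 nhr genes (61.4%) had a region, where the share of all protein-coding genes on V was 48%. Optimal peaks lay at 4 of the 166 nhr genes on V (2.41%), where the share of genes on V was 1.94%. Of the 158 genes, 109 had 1 region, 43 had 2 and 6 had 3.

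The signal values of the strongest regions ran from 12.1 to 94.8 with a median of 17.5, where the median over the 9528 protein-coding genes with a region was 16.9. The median rank was 11041 for nhr genes and 12463 for all genes. Regions ranked up to 2000 were found at 17 of the 158 genes (10.8%), where the share of all genes was 10.3%, and regions ranked up to 5000 at 47 (29.7%), where it was 22.8%. Most nhr genes with a region thus had it below the optimal set, and the shares were close to those of all genes among the strongest 2000 regions.

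**Figure D2:**
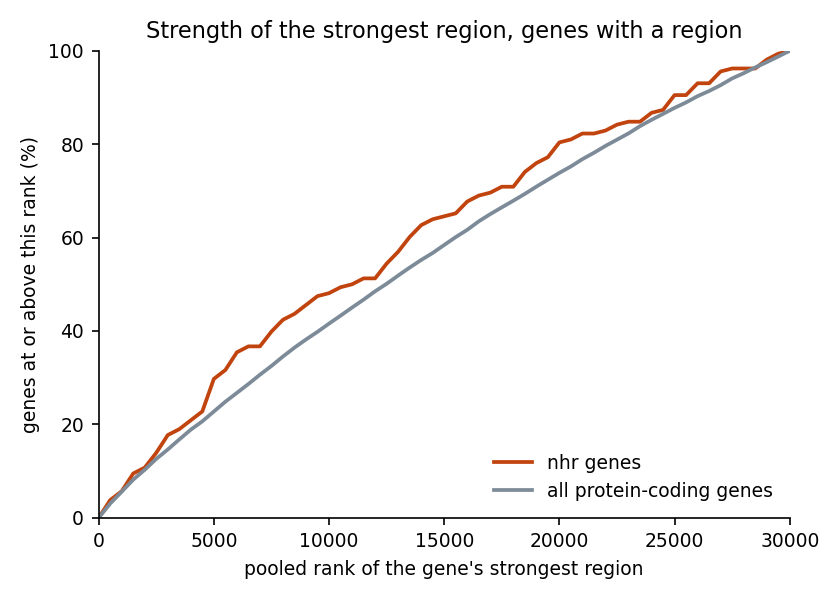
Cumulative percentage of genes (vertical) whose strongest region reached a given pooled rank (horizontal), for the 158 nhr genes and for all 9528 protein-coding genes with a region. The curves lie together up to about rank 2000, and at rank 5000 they stand at 29.7% for nhr genes and 22.8% for all genes.

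The region just below the optimal set with the highest signal value was at nhr-286 (V 7089471 to 7091610, minus strand), with a signal value of 37.5 and rank 705, and its summit 24 bp upstream of the start. It ranked 586 in replicate 2 but 22270 in replicate 1. The next were nhr-34 on IV, with a signal value of 33.98 and ranks of 1901 in replicate 1 and 2606 in replicate 2, and nhr-19 on II, with 33.8 and ranks of 17833 in replicate 1 and 662 in replicate 2. The region at nhr-34, in an intron 269 bp downstream of the start, had the closest replicate ranks of these 3. Signal values between 30.8 and 27.4 followed at nhr-195, nhr-188, nhr-84, nhr-114, nhr-198, nhr-88 and nhr-36, in that order.

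Among these 10 genes the replicate ranks were far apart in most cases. The region at nhr-188 overlapped none in replicate 1 and ranked 471 in replicate 2. That at nhr-195 ranked 9006 in replicate 1 and 1191 in replicate 2, with its summit 1759 bp upstream in a coding exon. That summit lay within the span of the neighbouring gene nhr-143 (V 8973014 to 8974939, minus strand). That at nhr-114, a receptor known for diet-dependent detoxification in the intestine, ranked 16734 in replicate 1 and 1426 in replicate 2. At nhr-84 the ranks were 13292 in replicate 1 and 3007 in replicate 2, at nhr-198 they were 6002 and 1828, at nhr-88 they were 13837 and 8937, and at nhr-36 they were 4557 and 2091, each with replicate 1 first. All 10 of these regions except the one at nhr-34 had the better rank in replicate 2. The same share over regions of all genes at like pooled ranks is not given here, so this is not read as a trait of nhr genes. Over all 158 genes, the strongest region overlapped a region of both replicates in 64 (40.5%), where the share over all genes was 35.1%. It overlapped a region of replicate 1 alone in 30 genes (19%), where the share over all genes was 25.6%, and of replicate 2 alone in 53 (33.5%), where it was 30.7%. It overlapped neither in 11 (6.96%), where it was 8.62%.

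**Figure D3:**
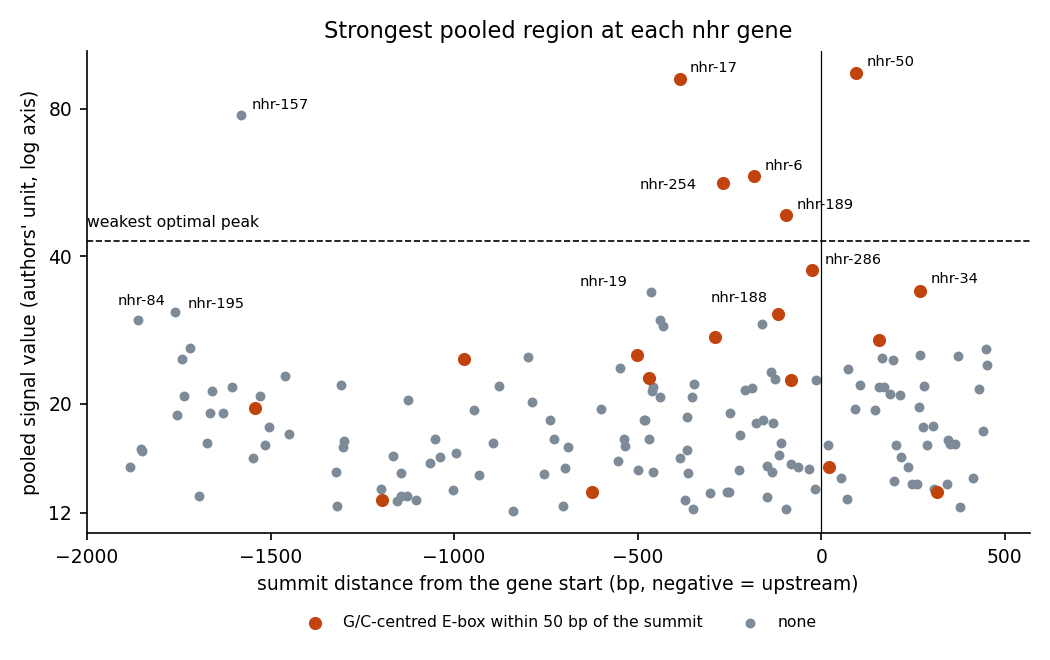
Signal value of the strongest pooled region at each of 158 nhr genes (vertical, authors' unit, log axis) against the distance of its summit from the gene start (horizontal, bp); large points hold a G/C-centred E-box within 50 bp of the summit, and the dashed line is the weakest optimal peak. Of the 6 genes above the line, 5 have summits from 386 bp upstream to 94 bp downstream, and nhr-157 stands apart at 1581 bp upstream.

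Summits lay upstream of the start at 116 of the 158 genes (73.4%), where the share over all genes was 75%, and within 500 bp upstream at 53 (33.5%), where it was 25.7%. The median position was 366 bp upstream at nhr genes and 490 bp upstream over all genes. By annotation, 83 summits were intergenic (52.5%), 35 were in coding exons (22.2%) and 24 in introns (15.2%). A further 7 were in 5′ UTRs (4.43%), 5 in 3′ UTRs (3.16%), 3 in pseudogenes (1.9%) and 1 in an exon of a non-coding RNA (0.633%). Over all genes, intergenic sequence held 47.1% of summits, coding exons 22.9% and introns 20.2%. There 5′ UTRs held 2.82%, 3′ UTRs 4.19%, pseudogenes 1.64% and exons of non-coding RNAs 1.16%.

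A G/C-centred E-box lay within 50 bp of the summit of the strongest region at 19 of the 158 nhr genes (12%, interval 7.40% to 18.1%), where the share over all genes was 6.82%. With regions given to every gene in reach, the nhr share was 10.3%, and the share over all genes is not given for that setting. Of the 19, 13 were of the CACCTG class (8.23% of the 158 genes) and 6 were CAGCTG (3.8%). Over all genes with a region these shares were 4.61% for CACCTG and 2.47% for CAGCTG, so CACCTG was the more frequent class there too. In replicate 1 alone a G/C-centred E-box was held at 9 of 151 genes (5.96%), where all genes gave 6.72%. In replicate 2 alone it was 19 of 162 (11.7%), where all genes gave 6.54%. The replicate lists therefore stand on different sides of the share over all genes, and the nhr share in the pooled list is close to that of replicate 2. Genes with the E-box had a median signal value of 27.0 and a median rank of 1822, and genes without it 16.9 and 12222. Over all protein-coding genes the medians were 21.4 and 5125 with the E-box and 16.7 and 12787 without it.

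**Figure D4:**
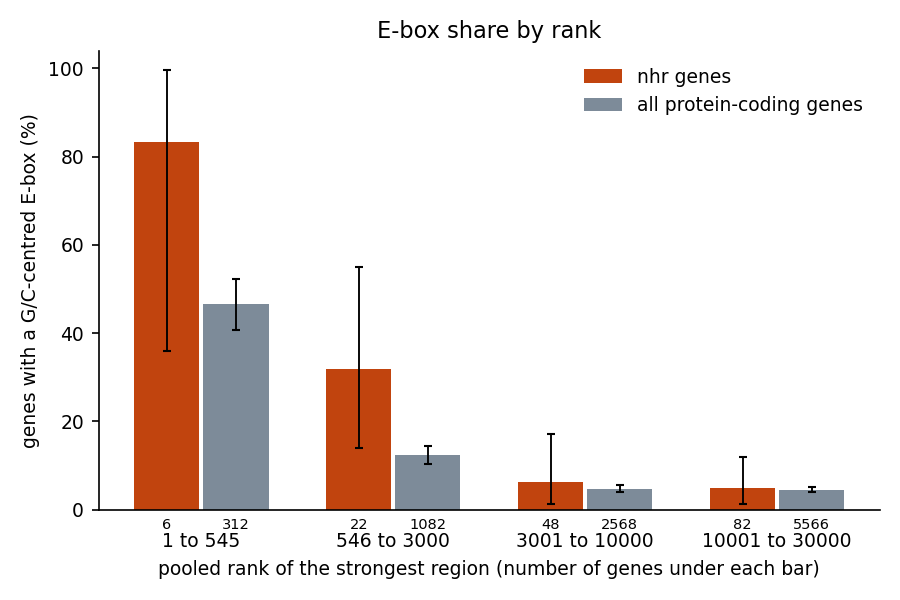
Percentage of genes with a G/C-centred E-box within 50 bp of the summit of their strongest region (vertical) by pooled rank (horizontal), for nhr genes (left bars) and all protein-coding genes (right bars), with 95% exact intervals and the number of genes under each bar. From rank 546 to 3000 the share is 7 of 22 nhr genes (31.8%, interval 13.9% to 54.9%) and 12.3% of all genes, and below rank 10000 it is 4.88% for nhr genes and 4.53% for all genes.

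Below the optimal set, 14 of 152 nhr genes held the E-box (9.21%), where the share over all genes was 5.48%. The 6 with the highest signal values were nhr-286, nhr-34, nhr-188, nhr-36, nhr-64 and nhr-156. At nhr-286 the box was 42 bp upstream of the start, at nhr-188 it was 118 bp upstream, with 253 bp upstream at nhr-36 and 495 bp upstream at nhr-156. It lay 229 bp downstream at nhr-34 and 145 bp downstream at nhr-64, a relative of HNF4. The other 8 were nhr-122, nhr-179, nhr-180, nhr-138, nhr-63, nhr-113, nhr-241 and nhr-221, with signal values from 24.7 at nhr-122 to 12.7 at the weakest.

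The presence of the hexamer alone was not rare. The window from 2000 bp upstream to 500 bp downstream held at least 1 G/C-centred E-box at 179 of the 268 nhr genes (66.8%), where the share over all genes was 67.5%. A box in the windows of several genes was counted once for each gene. Of the 341 boxes so counted in the nhr windows, 27 lay within 50 bp of a pooled summit (7.92%, interval 5.28% to 11.3%). The share over all genes, counted likewise, was 4.87%. The interval takes repeated boxes as separate ones and is therefore only nominal. Most boxes near nhr gene starts therefore lay more than 50 bp from any pooled summit.

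Of 11 conserved receptors with orthologues outside nematodes, 5 had a region and 1, nhr-6, an optimal peak, where 47.7% of all protein-coding genes had a region and 1.56% an optimal peak. With so few genes this count does not set them apart. The other 4 were nhr-67, the tailless orthologue, with a signal value of 25.2 in an intron 269 bp downstream of the start, nhr-239 with 23.2, nhr-111 with 22.4 and nhr-25, the FTZ-F1 orthologue that acts in moulting, with 16.4. Their pooled ranks ran from 2454 at nhr-67 to 13805 at nhr-25, and none of the 4 held a G/C-centred E-box at the summit. No region was in reach of nhr-23, the ROR orthologue needed for moulting, of nhr-8, a relative of the steroid receptor DAF-12, of nhr-85, the Rev-erb orthologue, or of nhr-41, nhr-48 and nhr-91.

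Of 12 receptors studied in metabolism, 8 had a region and none an optimal peak, where 47.7% of all genes had a region and 1.56% an optimal peak. The strongest were at nhr-114 (signal value 29.7, rank 1296) and nhr-64 (27.0, rank 1822). The region at nhr-49, a regulator of fat metabolism and the fasting response, had a signal value of 13.3 and rank 24117. That at nhr-80, which acts beside it in fatty acid desaturation, had 19.1 and rank 7939. Those at nhr-66, nhr-10, nhr-69 and nhr-68 ranked between 13432 and 19613. No region was in reach of nhr-13, nhr-14, nhr-62 and nhr-86. Apart from nhr-64, none of the 8 held a G/C-centred E-box at the summit.

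The lists of nuclear receptors with other symbols (2 of 5 with a region) and of proteins that work with the family (4 of 7 with a region) held no optimal peak, which at the all-gene shares of 47.7% and 1.56% does not set them apart. Of the 5 receptors, daf-12, the dafachronic acid receptor of the dauer decision, had a region of signal value 22.5 and rank 4058, and fax-1, which specifies neuron identity, had 1 of 17.6 and rank 10683. The olfactory neuron receptor odr-7, unc-55 of the motor neurons and sex-1 had none. Among the 7 cofactor and ligand synthesis genes the highest signal values were at din-1, a co-repressor of DAF-12, with 37.2 and rank 713, and at cbp-1, the p300 and CBP orthologue, with 33.5 and rank 895. The din-1 region ranked 19546 in replicate 1 and 506 in replicate 2, and the cbp-1 region 1191 in replicate 1 and 2981 in replicate 2. Regions at dhs-16 and daf-9, which act in dafachronic acid synthesis, ranked 14976 and 19745, and mdt-15, daf-36 and strm-1 had none.

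Several optimal peaks lay inside nhr genes but outside the window around the gene start. An optimal summit more than 500 bp downstream of the start and within the gene was found at 6 nhr genes (2.24%, interval 0.826% to 4.81%), where the share over all genes was 0.691%. These were nhr-258, nhr-36, nhr-124, nhr-27, nhr-40 and nhr-180, and none of them was among the 6 genes with a peak at the start. Over all protein-coding genes, 312 had an optimal peak at the start, 138 had one in the body and 443 had either. Few genes of any kind thus had both, and the lack of overlap does not set the nhr genes apart. The median gene length was 2.31 kb for nhr genes and 2.03 kb for all protein-coding genes. The count of genes with an optimal summit in the body was made after the values had been seen.

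The peak in nhr-258 (IV 8044938 to 8047493, plus strand) was the strongest of these, with a signal value of 82.2, rank 161, and ranks of 118 in replicate 1 and 229 in replicate 2. Its summit lay in an intron 1711 bp from the start. The peak in an intron of nhr-36, 994 bp from the start, had a signal value of 71.6 and ranked 218, 283 in replicate 1 and 262 in replicate 2. Peaks followed in nhr-124 (52.2, rank 395, 2076 bp from the start), nhr-27 (51.9, rank 398), nhr-40 (48.2, rank 444, 2810 bp) and nhr-180 (47.8, rank 452, 808 bp, in a coding exon). The gene nhr-27 is by far the longest of them (X 12705563 to 12808318, minus strand), and its summit lay 82027 bp from the gene start and 18877 bp upstream of the nearest annotated transcript start of the gene. At nhr-40 the nearest annotated transcript start was 2595 bp downstream of the summit. The peaks in nhr-258, nhr-36, nhr-124 and nhr-27 ranked within 661 in both replicates, whereas that in nhr-40 ranked 1363 in replicate 1 and 540 in replicate 2.

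A G/C-centred E-box lay at 4 of these 6 summits. Of all protein-coding genes with an optimal peak at the start, 46.5% held one, and the share over all body peaks is not given here. With 6 peaks the count is not set apart from that share. The 3 intronic summits with a box are shown on the strand of the gene, as above, for comparison with the peaks at gene starts.
nhr-258: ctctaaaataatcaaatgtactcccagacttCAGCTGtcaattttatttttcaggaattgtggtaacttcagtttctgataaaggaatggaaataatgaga
nhr-124: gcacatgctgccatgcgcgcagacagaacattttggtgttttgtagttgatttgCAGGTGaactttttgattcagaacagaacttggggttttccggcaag
nhr-27: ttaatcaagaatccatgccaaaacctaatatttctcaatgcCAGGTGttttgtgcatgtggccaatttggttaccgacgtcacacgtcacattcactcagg
The box lay close to the summit in nhr-124 and nhr-27. The nhr-180 peak, in coding sequence, held CACCTG near the edge of the window, and nhr-36 and nhr-40 held none of the 3 hexamers. A further 4 optimal peaks lay outside nhr genes with summits 2527 to 4996 bp upstream of their starts. The share of all genes with such a peak is not given here. The strongest of the 4 was at chrV:8978692-8978804, 3808 bp upstream of nhr-143, with a signal value of 103.9, rank 86, and a CACCTG box. No gene start was in reach of it or of the peak 2527 bp upstream of nhr-105, whereas the peak upstream of nhr-172 lay in reach of the chemoreceptor gene srh-229 and that upstream of nhr-168 in reach of the channel gene lgc-48.

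Of the 150 nhr genes whose start lay within 10000 bp of that of another, 4 had an optimal peak, as did 2 of the 118 others. The share over all protein-coding genes was 1.56%, and over those on chromosome V 1.94%. With so few genes at optimal peaks, neither count is set apart from these shares. The longest run, of 12 genes, held none, as did another run of 9 and one of 8. The run of 9 genes from nhr-185 to nhr-124 on chromosome V was the only one with optimal peaks at 2 gene starts, and was chosen for description after this was seen. Along a stretch of 58.2 kb from nhr-186 in this run to the separate gene nhr-156, 9 of 17 protein-coding genes were nhr genes. The stretch leaves out nhr-185, which had no pooled region. It held 25 pooled regions, of which 3 were optimal peaks, where the whole pooled list held 545 among 30000. Because the stretch was chosen by its peaks, these counts do not set it apart. All 3 optimal peaks of the stretch were at nhr genes. Their summits lay 96 bp upstream of the start at nhr-189, 1581 bp upstream at nhr-157 and in an intron at nhr-124. At the strongest region, CAGCTG was held by 3.8% of nhr genes with a region and by 2.47% of all genes with a region. In this stretch the CAGCTG box lay at the summits of nhr-188, nhr-189 and, outside the run, nhr-156. The neighbours nhr-188 and nhr-189 both carried it, 2 bp from the summit and 118 bp upstream of the start at nhr-188, and 17 bp from the summit and 80 bp upstream of the start at nhr-189. The summit sequence of nhr-188 is shown for comparison with that of nhr-189 given above, since the genes are neighbours on the same strand.
nhr-188: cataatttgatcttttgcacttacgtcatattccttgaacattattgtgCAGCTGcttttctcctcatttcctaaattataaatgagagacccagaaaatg
Over the 500 bp upstream of the start, nhr-188 and nhr-189 had 58.4% of bases identical in a global alignment, the highest of the 36 pairs among the 9 nhr genes, whose median was 51.5%. The signal value was 30.5 at nhr-188 and 48.6 at nhr-189, and nhr-188 overlapped no region in replicate 1 while nhr-189 ranked 460 there. In replicate 2, nhr-188 ranked 471 and nhr-189 ranked 427. The region of nhr-187, next to them, had a signal value of 21.7 and no box, at 1606 bp upstream.

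**Figure D5:**
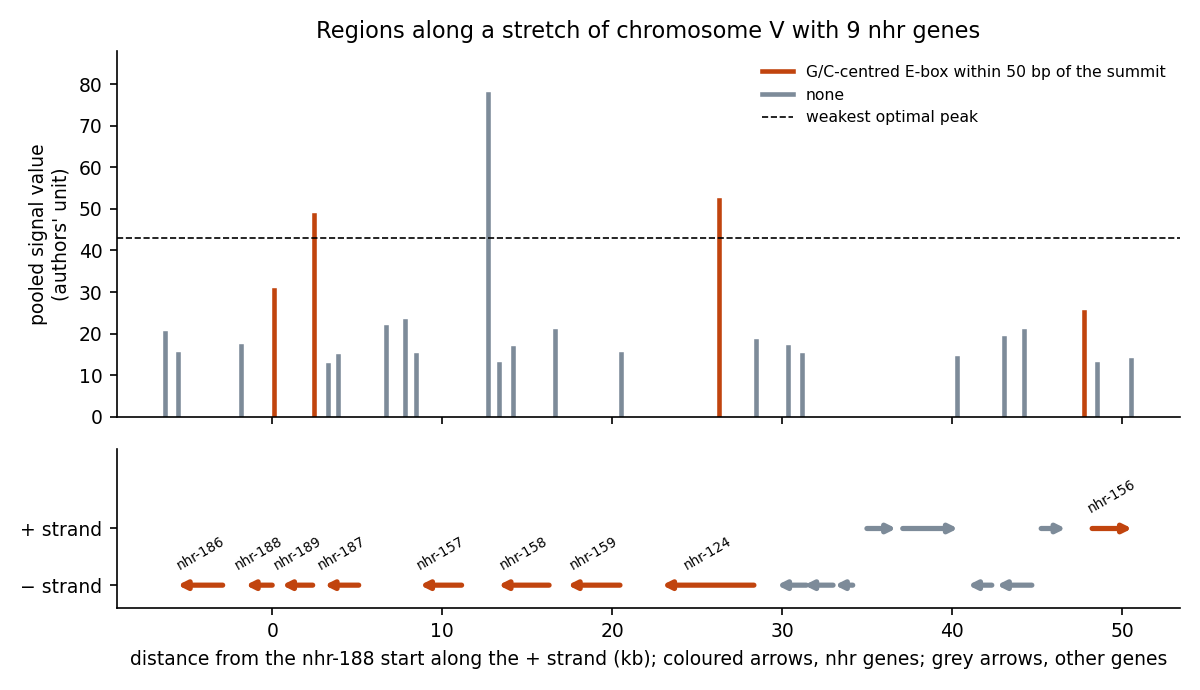
Pooled regions (vertical lines, height in the authors' signal units) and genes (arrows) along the stretch of chromosome V from nhr-186 to nhr-156, by distance in kb from the nhr-188 start; coloured lines hold a G/C-centred E-box within 50 bp of the summit, and the dashed line is the weakest optimal peak. The lines above it belong to nhr-189 at 48.6, nhr-157 at 77.7 and nhr-124 at 52.2.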

How the data were processed

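The deposited files used here are headerless peak lists on ce11, 1 per replicate, 1 from the pooled replicates and 1 of optimal peaks. Per the descriptive text deposited beside them, the authors derived the region lists from alignments of the libraries with a control, and the optimal peaks from the replicate and pooled lists by an irreproducible discovery rate (IDR) analysis. The sources used here do not name the aligner or the peak caller, and read depth is unknown. The deposited signal value, whose normalization is not stated, was used to rank regions within a list. The deposited −log10 q-value supports no result here. The summit offset is the authors' and other positions were made 1-based. Lists on ce10 were not used.

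Summits were assigned to genes of Ensembl release 115, and a tie went to the gene listed first. Sequences are from the RefSeq copy of WBcel235. Replicate ranks are those of the strongest region overlapping by at least 1 bp. Python 3.11.15, pandas 2.3.3, SciPy 1.17.1 and Biopython 1.88 were used, and assignment and E-box search were tested on simulated summits and sequences. The genes named are those at optimal peaks, the 10 strongest below them, those among the 545 strongest regions of 1 replicate, the 6 strongest with an E-box below the optimal set, and 4 lists. Genes with optimal peaks in the gene body or beyond the window, the remaining genes with an E-box, and nhr-185, nhr-186, nhr-187, nhr-246, srh-229 and lgc-48 were named after their values were seen. The members and lists were chosen with earlier results of these data known. The nhr genes exclude 1 gene, which is not reported here.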

Additional observations from a re-analysis of the deposited data

How the results depend on the processing

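The count of nhr genes at optimal peaks was 10 with a window from 5000 bp upstream to 1000 bp downstream, 3 with the stronger 272 optimal peaks, and 12 when optimal summits in the gene body were added, an alternative chosen after seeing the data. With the body summits added, the share was 4.48% for nhr genes, where it was 2.22% for all protein-coding genes. Using 1 replicate alone the count of nhr genes ran from 5 to 6. The median rank was 8655 with the wider window, and from 9438 to 11616 with 1 replicate alone. The share with a G/C-centred E-box was 6.33% within 25 bp of the summit and 17.7% within 100 bp, and from 5.96% to 11.7% with 1 replicate alone. Shares over all genes are not given for the other windows, the stronger peaks or the other search distances. Those values therefore describe the nhr genes only, and the all-gene share of 6.82% holds for 50 bp. The count of genes with a region (108 to 190 over the alternatives) and that of peaks among the strongest regions of both replicates (4 to 5) moved by less than 1.5 times. No paired analysis was possible because both libraries belong to 1 group. Read depth is unknown and the control was not analysed here, so a weak region at a gene cannot be told apart from background. With 2 libraries the spread between replicates rests on a single difference.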
